A study of Mus musculus with 54 samples.

Results

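Abundant long intergenic noncoding RNAs (lincRNAs) of the mouse heart and liver are described here. A gene was a member when its type in the deposited tables was lincRNA and its mean over the 9 mice of a tissue was at least 200 normalized counts in the heart or the liver table, so the members were chosen by their own level, and that level is given as a description only. The tables held 54356 genes, of which 5701 were lincRNAs and 126 members. In the heart 78 reached the threshold and in the liver 89. The mean ran over all genotypes, so a gene that was high in a single genotype could reach the threshold through it. Such genes can raise the counts of members called between genotypes. The threshold was reached in both tissues by 41, in the heart alone by 37 and in the liver alone by 48. The members nearest to the threshold in the heart were AC141882.2 with a mean of 200.2 normalized counts and Gm31659 with 201.3, and the nearest lincRNAs under it were Gm43042 with 195.8 and Lsmem2 with 197.5. In the liver these were 4933404O12Rik with 203.7 and 9030622O22Rik with 208.9 above it, and Gm40770 with 198.8 and AC121973.1 with 199.2 under it.

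The mice carried knock-in mutations in Mrps12, which encodes a protein of the decoding site of the mitochondrial ribosome. Homozygous Mrps12ep/ep mice have error-prone mitochondrial protein synthesis, Mrps12ha/ha mice have hyper-accurate synthesis, and Mrps12+/+ littermates from the same heterozygous crosses were the controls. All groups were male C57BL/6 mice of 20 weeks on a high-fat diet with 42% of its energy from fat, so no group on normal chow is compared here, and the alleles were present in every cell of the body. RNA of whole hearts and livers of 3 mice per genotype was sequenced in 54 libraries. Each organ of a mouse gave 3 technical libraries, and the tables hold 9 columns per tissue, each headed by a sample number that the labels give to the 3 technical libraries of 1 replicate. The methods speak of pooling independent replicates ahead of quantification. Each column was taken here as 1 mouse with its technical libraries pooled, and every n of 3 rests on that reading. Mice are numbered 1 to 3 within each genotype and tissue, and the labels do not tie a heart to a liver.

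A lincRNA is transcribed from its own locus between protein-coding genes, is usually spliced and capped like an mRNA, and does not encode a known protein. Some lincRNAs build nuclear bodies, some bind and titrate proteins or microRNAs, and some are carriers whose introns or exons hold small RNAs that are cut out during processing. Neat1 is the scaffold of paraspeckles and Malat1 is a component of nuclear speckles, the nuclear domains that store splicing factors. Norad binds Pumilio proteins, Cyrano directs the decay of miR-7, and H19 and Meg3 are imprinted RNAs that are transcribed from the maternal chromosome. For most of the members no role is established.

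Of the 126 members, 59 carried a provisional Gm name, 34 a Rik name and 11 only the name of a genomic clone. The members lay on 20 chromosomes. The median exon length was 2393 bases, with a range of 168 to 93147, and 27 had a single exon block. A protein-coding gene lay within 5 kb of 56 members, on the opposite strand for 34, and 12 overlapped one. The read-through gene Gm20388 was left out of these numbers, so Gm4316, inside its intron, is not counted as overlapping. Exon bases were shared with another gene of the same strand by 6 members and with a gene of the opposite strand by 24. Small RNAs lay inside 11 members, microRNAs in 7 and snoRNAs or scaRNAs in 5. RefSeq lists 1810058I24Rik (also called Stmp1) and Gm37494 as protein coding, in contrast to the tables.

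On the scale of recovered reads a heart held 11202947 to 51499054 reads on genes and a liver 21238042 to 81491455, and the shallowest heart was that of Mrps12ha/ha mouse 2. The next shallowest was that of ha/ha mouse 1 with 17918724 reads, against 33826413 or more in the remaining hearts. Summed markers of cardiomyocytes stood at 88304.0 to 128402.7 counts per 1000000 (CPM) in the hearts and those of hepatocytes at 128833.8 to 161799.5 in the livers, so each tissue held the markers of its label. Markers of other cells differed between mice. The 8 atrial markers summed to 3120.3 to 13954.3 CPM in the hearts of +/+ mice 2 and 3 and ep/ep mice 2 and 3, and to 96.7 to 384.7 in the other 5 hearts. The 10 erythroid markers summed to 14279.3, 6189.0 and 43240.1 in ha/ha hearts and to 3082.1 to 7778.6 in the other hearts. The 12 skeletal muscle markers summed to 627.1 and 764.7 in the livers of +/+ mice 1 and 2 and to 0.7 to 4.2 in the other 7. No marker of these lists was at 0 in every mouse. Fewer cells of a type and less RNA per cell cannot be told apart in bulk tissue.

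The sequences in which the known roles of the members lie are shown first. Cyrano is listed in the tables as 1700020I14Rik (chr2:119594297-119607502, plus strand, GRCm38) and in RefSeq as Oip5os1. Its transcript of 8300 bases held 2 matches to the seed of miR-7. The first line shows the microRNA from RefSeq with its seed, bases 2 to 8, in capitals. The next lines show the transcript around each match, from 5′ to 3′, with the bases opposite the seed in capitals.
mmu-miR-7a-5p: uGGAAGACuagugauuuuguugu
Cyrano site at base 2952: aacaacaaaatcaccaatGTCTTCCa
Cyrano site at base 762: tcaggttttttttttaatGTCTTCCa

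At the site at base 2952, 21 of the 23 bases of miR-7a-5p could pair with the transcript, and between the paired stretches the transcript was longer than the microRNA by 2 bases. At base 762 the number was 12. Near-complete pairing outside the seed thus marks 1 of the 2 matches.

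Norad is listed as 2900097C17Rik (chr2:156388065-156392979, minus strand, GRCm38). The Pumilio motif TGTANATA occurred 11 times in its 4915 bases, and it ranked first among 6058 lincRNAs with a transcript by that number. Of all lincRNAs 13.9% held at least 1 copy, against 31 of the members (24.6%), and the mean per kb was 0.12 for all lincRNAs and 0.13 for the members. The stretch from base 2432 to 2468 holds a pair of motifs, in capitals, whose starts are 9 bases apart.
Norad bases 2432 to 2468: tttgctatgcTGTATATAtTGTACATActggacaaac

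Several members carry microRNAs, which RefSeq gives for 11 of 12 microRNA genes. They are shown with their seeds in capitals because the seed decides which mRNAs a microRNA can bind. A group of 3 let-7 RNAs from 6720427I07Rik (chr13:48532905-48546500, minus strand) share 1 seed. The other microRNAs printed here have seeds of their own. The gene of miR-24-3p ends within 2 bases of the start of Gm26532 (chr8:84208920-84209609, plus strand) and is not contained in it.
mmu-let-7a-5p, in 6720427I07Rik: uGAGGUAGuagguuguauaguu
mmu-let-7f-5p, in 6720427I07Rik: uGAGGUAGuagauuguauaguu
mmu-let-7d-5p, in 6720427I07Rik: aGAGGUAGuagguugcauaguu
mmu-miR-24-3p, at the start of Gm26532: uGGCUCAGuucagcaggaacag
mmu-miR-101a-3p, in E130102H24Rik: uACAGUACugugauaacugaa
mmu-miR-675-5p, in H19: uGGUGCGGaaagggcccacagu
mmu-miR-770-5p, in Meg3: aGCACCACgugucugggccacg
mmu-miR-374b-5p, in Ftx: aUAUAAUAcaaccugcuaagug

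The RNA measured here is that of the carrier and not of the microRNA. Mature microRNAs were not measured.

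The level of the members in the 2 tissues was compared as CPM of the column total, as values side by side with no test, since the tables were normalized separately. More than 10-fold higher in the heart were 25 members and in the liver 32, and 69 lay between. By the normalized counts as deposited these numbers were 23, 36 and 67. Thus fewer than 1 member in 2 differed more than 10-fold between the tissues, and the others were read in both.

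The heart was marked by AC132253.9 (chr19:9828899-9836897, minus strand), an uncharacterized lincRNA of 2 exon blocks. It stood at 472.86 ± 76.38 CPM in the heart and 0.68 ± 0.39 in the liver (SD, n = 9). Gm5532 stood at 90.69 ± 24.73 CPM against 0.21 ± 0.14, and 5430431A17Rik at 35.49 ± 14.50 against 0.03 ± 0.09. Both were thus near 0 in the liver. Per kb of exon the order differed from that of the counts. Gm44386, a short transcript with 31.05 ± 7.09 CPM in the heart, ranked 18 by its CPM and 3 by its level per kb, at 72.37 CPM per kb against 71.97 for Norad. Gm36827 had no read in any liver and was at least 375-fold higher in the heart, with the floor set at 3 reads per library.

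The liver had its own set. AC117816.1 stood at 88.55 ± 7.75 CPM in the liver and 0.21 ± 0.20 in the heart, Gm48633 at 23.36 ± 3.97 against 0.04 ± 0.04 and Gm27216 at 16.16 ± 2.72 against 0.03 ± 0.04. AC157910.3 holds the gene of miR-122, the most abundant microRNA of hepatocytes, and stood at 10.89 ± 3.50 CPM in the liver and 0.03 ± 0.05 in the heart. Its reads in the hearts were at most 6. The highest level per kb in the liver was that of AC102496.1, at 301.69 CPM per kb.

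Both imprinted members were read mainly in the heart. H19 stood at 85.71 ± 83.34 CPM in the heart and 5.01 ± 8.36 in the liver, and Meg3 at 39.75 ± 12.09 and 1.65 ± 0.99. For H19 the SD was about as large as the mean in the heart and larger than the mean in the liver, and Meg3 varied less in the heart. Members with housekeeping or structural roles were shared between the tissues. Neat1 stood at 1175.08 ± 567.38 CPM in the heart and 360.21 ± 146.08 in the liver, Malat1 at 240.41 ± 45.21 and 53.14 ± 20.65, Norad at 353.73 ± 59.15 and 127.37 ± 9.24 and Cyrano at 371.73 ± 38.82 and 47.50 ± 3.74. All of these were higher in the heart by less than 10-fold. The snoRNA hosts Snhg12 (7.91 ± 2.23 and 7.43 ± 0.83) and Snhg6 (5.61 ± 1.09 and 5.57 ± 0.88) and 1810058I24Rik (73.61 ± 9.57 and 73.29 ± 20.18) were nearly equal by CPM in the 2 tissues.

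**Figure D1:**
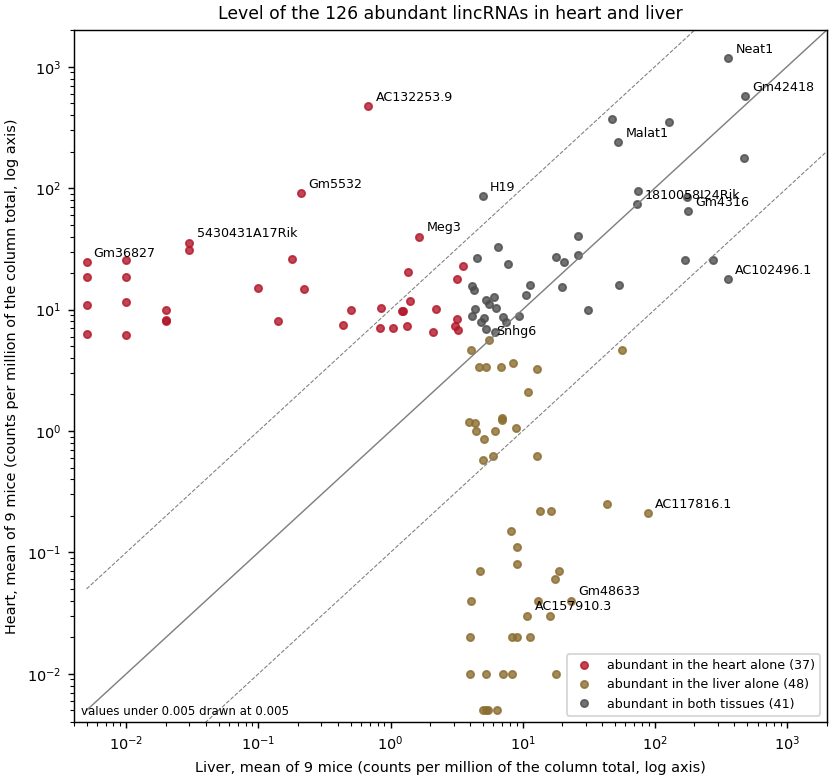
Mean CPM over 9 livers (horizontal axis) and 9 hearts (vertical axis) of the 126 abundant lincRNAs, both axes on a log scale, 1 point per lincRNA, with equal levels on the solid line, 10-fold differences on the broken lines and values under 0.005 drawn at 0.005. AC132253.9 lies far to the side of the heart at 472.86 against 0.68 and AC117816.1 to the side of the liver at 88.55 against 0.21, while Neat1 is high in both.

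In the heart the highest means over the 9 mice were those of Neat1, Gm42418, AC132253.9, Cyrano and Norad, and in the liver those of Gm42418, AC160336.1, Neat1, AC102496.1 and Gm42047. Together the 78 heart members took 0.368% to 0.476% of the normalized counts of a heart, except in ha/ha mouse 1 with 0.903%. Without Gm42418, Gm26917 and Neat1 the range was 0.279% to 0.331%, so these 3 genes made up the excess in that mouse. The 89 liver members took 0.320% to 0.484%. Over the 9 mice the members had a higher median variation than all genes with a mean of at least 200. That set includes the members and was not matched to them on level, which can itself affect the variation. The median coefficient of variation was 23.7% for the heart members and 16.1% for the 10471 genes of any type with a mean of at least 200, and in the liver 23.9% and 13.4% for 9976 genes.

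The effect of the genotypes was then examined in each tissue with limma on the log2 of the normalized count plus 1. The p-values were adjusted over 16057 tested genes in the heart and over 15314 in the liver. All log2 fold changes below are on this scale, with the SE of the fit.

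In hyper-accurate hearts more of the members were higher than lower, but none passed the adjusted threshold. Of the 78 heart members 0 had an adjusted p under 0.05 against Mrps12+/+, where 0.0311% of all genes did. With an unadjusted p under 0.05, 17 were higher (21.8% against 9.64% of all genes tested) and 6 lower (7.69% against 10.1%). Gm26917, among the higher, was a heart member only through its values in ha/ha hearts. A fit with limma-voom on recovered reads gave 0 and 26 at the same thresholds. Counts over all genes are not given for the limma-voom fits, here and below, so their numbers describe the members alone. The median log2 fold change was 0.18 for the members and -0.024 for all genes, and 49 were above 0 and 29 below. By mouse, the median of the members relative to the mean of the +/+ hearts was 0.20, 0.06 and 0.25 in ha/ha mice 1 to 3, between -0.01 and 0.03 in the +/+ mice and between -0.09 and 0.03 in the ep/ep mice. The ha/ha hearts thus lay above all others, with mouse 2 nearest to them.

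The calls depended on ha/ha mouse 2, the shallowest heart. Without it 23 heart members rose and 7 fell at an adjusted p under 0.05, where 12.2% of all genes rose and 14.8% fell. The members' median was 0.18 in that fit too. Among those that rose were Snhg12 (0.77 ± 0.17), Meg3 (0.78 ± 0.23) and Neat1 (0.93 ± 0.29), with adjusted p of 0.0139, 0.0402 and 0.0449 from limma. Each mouse was left out in turn, and of these fits the one without ha/ha mouse 2 gave the most calls. By the members' median that mouse lay nearest to the controls. Where a member's value in it lay near theirs, leaving it out widens the difference and narrows the spread. More calls can follow from that choice alone. The adjusted p-values without it, here and below, rest on ha/ha mice 1 and 3 and are a description. The reason for the distance of mouse 2 from the other ha/ha hearts was not tested. Its erythroid markers, 6189.0 CPM, lay within the range of the controls, whereas those of ha/ha mice 1 and 3 lay above it. The 8 endothelial markers summed to 2304.2, 1394.5 and 2042.5 CPM in ha/ha hearts 1 to 3 and to 1217.6 to 1754.6 in the other hearts, so that the same 2 mice were high. The 10 cardiomyocyte markers summed to 105417.5 to 128402.7 CPM in ha/ha hearts, 93696.2 to 103835.4 in +/+ and 88304.0 to 106440.3 in ep/ep, and the 8 mesothelial markers to at most 17.7 in ha/ha and 21.7 to 119.4 in the others. The part of these cell types in the members' values was not tested. With the 4 hearts that held atrial markers left out, a comparison chosen after seeing the data, 3 heart members and 441 of all genes had an unadjusted p under 0.05. That comparison left 1 +/+ and 1 ep/ep heart, which were assumed to vary like the 3 ha/ha hearts.

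The member with the lowest p in hyper-accurate hearts was Gm21781 (chr10:4391587-4396424, plus strand), a single-exon RNA near Zbtb2. It had 232.5, 231.0 and 237.7 normalized counts in +/+ hearts, 215.0, 236.0 and 241.6 in ep/ep and 443.6, 320.1 and 447.4 in ha/ha. All 3 ha/ha hearts lay above the other 6. The log2 fold change against +/+ was 0.77 ± 0.16 (limma, adjusted p = 0.175), and without ha/ha mouse 2 it was 0.93 ± 0.12 with an adjusted p of 0.00332. Lppos (chr16:24391612-24393588, minus strand) is antisense to Lpp, a gene of cell adhesion. Its counts were 230.8, 250.0 and 222.6 in +/+, 281.3, 234.9 and 244.3 in ep/ep and 390.2, 299.0 and 414.9 in ha/ha hearts, again with no overlap. On the log2 scale the difference was 0.64 ± 0.16 (adjusted p = 0.191), and Lpp itself had -0.45 ± 0.16 (adjusted p = 0.213).

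Gm43597 (chr5:150599932-150607003, minus strand) separated ha/ha from ep/ep. It had 474.5, 468.9 and 493.1 normalized counts in +/+ hearts, 522.1, 416.9 and 381.4 in ep/ep and 903.8, 540.6 and 1003.4 in ha/ha. The groups did not overlap, and ha/ha mouse 2 lay close to the highest ep/ep heart. Of the members lower in ha/ha than in +/+ hearts, Gm45495 and Gm34934 had the lowest p. The widest log2 differences among these, picked after their values were seen, were -1.30 ± 0.54 for Gm20186 (adjusted p = 0.236) and -1.27 ± 0.52 for Gm12840 (adjusted p = 0.232, limma). Gm45495 had 206.7, 287.2 and 311.9 in +/+, 206.0, 249.9 and 226.1 in ep/ep and 184.1, 193.3 and 187.4 in ha/ha hearts, with -0.49 ± 0.18 on the log2 scale (adjusted p = 0.22, limma). Gm34934, which begins 97 bases from Samd4 on the other strand, had 286.8, 346.1 and 300.0 in +/+, 238.7, 270.8 and 293.3 in ep/ep and 233.8, 262.7 and 186.0 in ha/ha. All ha/ha hearts lay under the +/+ hearts for both genes, while Gm34934 overlapped with ep/ep. The adjusted p of Gm34934 was 0.22, and without ha/ha mouse 2 it was 0.038. Samd4, an RNA-binding translational repressor, was at -0.66 ± 0.19 (adjusted p = 0.199).

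C030037D09Rik lies 132 bases from Msi2, which encodes an RNA-binding protein, on the other strand. It stood at 244.6, 272.5 and 266.0 normalized counts in +/+ hearts, 205.1, 346.2 and 296.1 in ep/ep and 110.4, 283.9 and 116.9 in ha/ha. Low values were found in ha/ha mice 1 and 3, and mouse 2 lay among the controls. Against ep/ep the log2 fold change was -0.84 ± 0.35 (adjusted p = 0.266, limma), and -1.27 without ha/ha mouse 2 (adjusted p = 0.00747).

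**Figure D2:**
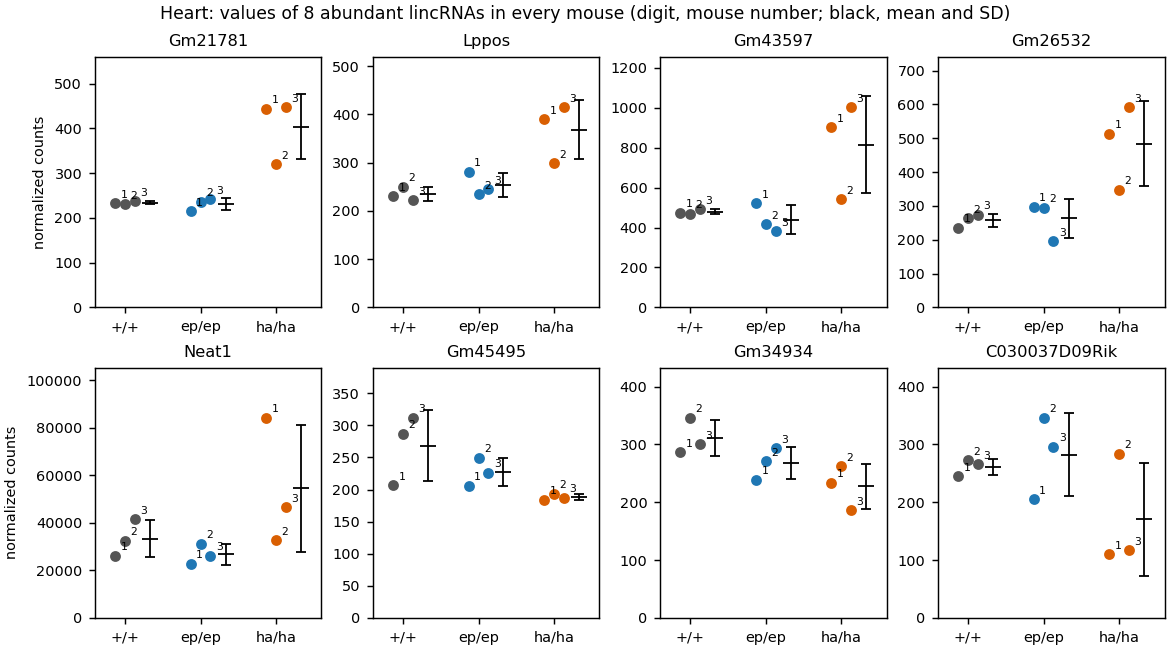
Normalized counts of named lincRNAs in each heart, 3 mice per genotype (n = 3), each point labelled with its mouse number, with the mean and SD of each group in black. Gm21781 stands at 215.0 to 241.6 in the 6 hearts of +/+ and ep/ep mice and at 320.1 to 447.4 in the ha/ha hearts.

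Of the RNAs of nuclear domains, Neat1 had 26238.5, 32564.5 and 41482.5 normalized counts in +/+ hearts, 22776.1, 31196.3 and 26178.1 in ep/ep and 84284.1, 32731.8 and 46542.5 in ha/ha. The ha/ha hearts lay above the ep/ep hearts and overlapped with +/+, and mouse 1 was far above the others. Its log2 fold change was 0.62 ± 0.33 against +/+ (adjusted p = 0.299) and 0.93 ± 0.33 against ep/ep (adjusted p = 0.249, limma). Malat1 was at 7896.5, 7997.1 and 9293.2 in +/+, 6488.5, 6597.5 and 9097.8 in ep/ep and 6492.3, 10449.5 and 6024.2 in ha/ha hearts, with overlap between all groups and a log2 fold change of -0.17 ± 0.22 (adjusted p = 0.651).

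For the RNAs with a known sequence-based role, whose sites are printed above, the hearts of the genotypes overlapped. Norad had 12447.6, 11252.8 and 13182.9 normalized counts in +/+, 11807.1, 11839.2 and 12692.2 in ep/ep and 7449.5, 12832.4 and 9735.0 in ha/ha hearts. Its log2 fold change of -0.33 ± 0.18 in ha/ha hearts missed the threshold with all mice (adjusted p = 0.318) and was -0.53 ± 0.13 without mouse 2 (adjusted p = 0.0215, limma). The low values were those of ha/ha mice 1 and 3. Cyrano was at 14258.5, 11716.6 and 12232.0 in +/+, 12567.9, 9898.9 and 13153.5 in ep/ep and 10129.6, 13581.4 and 11315.9 in ha/ha, with -0.13 ± 0.16 (adjusted p = 0.644).

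Snhg20, the host of an scaRNA and of miR-6516, had 327.2, 226.7 and 215.7 normalized counts in +/+ hearts, 337.8, 208.8 and 209.8 in ep/ep and 552.2, 292.9 and 641.1 in ha/ha. Mouse 2 lay under the highest control. In the fit the log2 fold change was 0.90 ± 0.32 with an unadjusted p of 0.0195 (adjusted p = 0.215, limma), and without mouse 2 it was 1.24 ± 0.26 (adjusted p = 0.0122). The let-7 carrier 6720427I07Rik had 267.8, 295.9 and 263.5 in +/+, 309.1, 280.1 and 306.0 in ep/ep and 539.3, 308.0 and 391.4 in ha/ha hearts, with a log2 fold change of 0.54 ± 0.20 (adjusted p = 0.216). Here the ha/ha hearts lay above +/+, and mouse 2 overlapped with ep/ep.

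Ftx, a transcript of the X-inactivation centre that carries miR-374b and miR-421, had 260.1, 206.8 and 183.6 normalized counts in +/+ hearts, 222.9, 200.1 and 196.2 in ep/ep and 436.3, 199.3 and 421.8 in ha/ha. Mouse 2 again lay among the controls, and the log2 fold change was 0.63 ± 0.29 (adjusted p = 0.259, limma). Since Ftx shares exon bases with another gene on its strand, its counts may hold reads of that gene. Gm26532, which starts where the gene of miR-24-3p ends, had 235.9, 263.0 and 274.2 in +/+, 298.2, 294.6 and 196.2 in ep/ep and 513.6, 347.3 and 592.0 in ha/ha hearts, with no overlap and a log2 fold change of 0.88 ± 0.23 (adjusted p = 0.191). The snoRNA hosts Snhg12 (0.40 ± 0.29, adjusted p = 0.426), Snhg6 (0.35 ± 0.20, adjusted p = 0.318) and Epb41l4aos (0.39 ± 0.27, adjusted p = 0.412) were on the same side, and Snhg18 was not (-0.28 ± 0.28, adjusted p = 0.565). E130102H24Rik, which carries miR-101a, was at 0.40 ± 0.23 (adjusted p = 0.341). Gm26532, 6720427I07Rik and E130102H24Rik were named for the microRNA beside or inside them after their values had been seen.

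Stmp1, the transcript that RefSeq lists as coding for a mitochondrial microprotein, had 2500.7, 2150.0 and 2154.0 normalized counts in +/+ hearts, 2478.5, 1816.8 and 2118.7 in ep/ep and 2645.2, 2666.7 and 3064.3 in ha/ha. Every ha/ha heart, mouse 2 included, lay above the others, with a log2 fold change of 0.30 ± 0.14 against +/+ (adjusted p = 0.255) and 0.39 ± 0.14 against ep/ep (adjusted p = 0.246, limma). Gm37494 was at 0.27 ± 0.13 against +/+ (adjusted p = 0.276), with no overlap between these groups.

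The members beside ribosomal RNA sequence were set apart by single mice. Gm42418 (chr17:39846958-39848788, plus strand) lies opposite AY036118 and is known to collect reads of ribosomal RNA. It had 5214.1, 3986.0 and 5266.4 normalized counts in +/+ hearts, 3757.4, 3701.5 and 4522.6 in ep/ep and 120082.9, 14898.1 and 7331.9 in ha/ha. Gm26917 had 171.4, 169.6 and 212.6, 172.4, 178.6 and 162.6, and 1238.8, 217.4 and 384.5 in the same order. The ha/ha hearts lay above the others for both, and the values within the group differed by more than 5-fold. The log2 fold change of Gm42418 was 2.30 ± 0.80 (adjusted p = 0.213, limma) and that of Gm26917 1.35 ± 0.50 (adjusted p = 0.22). In the liver Gm42418 was high in ep/ep mouse 3 with 47982.0 and ha/ha mouse 3 with 93264.0, against 6476.1 to 22830.7 in the other 7. Carry-over of ribosomal RNA was not measured, and its part in these values was not tested.

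In error-prone hearts no heart member met either threshold. Of the 78 heart members 0 had an adjusted p under 0.05 against +/+ (0% of all genes tested), and 0 had an unadjusted p under 0.05, where 1.05% of all genes were higher and 0.635% lower. The limma-voom fit likewise called 0 at either threshold. The median log2 fold change of the members was -0.06. Between the mutants, 0 heart members passed the adjusted threshold (0.0249% of all genes), while 18 were higher in ha/ha than in ep/ep with an unadjusted p under 0.05 (23.1% against 9.07%) and 1 was lower (1.28% against 8.86%). Gm26917, a heart member only through its values in ha/ha hearts, can add to the higher count. The fit with limma-voom gave 0 and 24. The median was 0.21. Without ha/ha mouse 2, 21 rose and 4 fell at an adjusted p under 0.05, against 10.4% and 12.9% of all genes. All 3 comparisons within a tissue share mice and are not independent.

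In hyper-accurate livers a few members differed by several fold. Of the 89 liver members 0 had an adjusted p under 0.05 against +/+, where 0.00653% of all genes did. With an unadjusted p under 0.05, 17 were higher (19.1% against 7.07%) and 7 lower (7.87% against 7.05%), and limma-voom gave 0 and 28. Among the called members, Gm31583, Gm15408 and H19 were liver members only through the genotype in which they were high. The median log2 fold change was 0.19 for the members and -0.017 for all genes. By mouse the median of the members was 0.14, 0.21 and 0.15 in ha/ha livers, 0.09, 0.17 and 0.22 in ep/ep and between -0.08 and 0.15 in +/+. The livers of the 3 genotypes thus overlapped in their median. With the +/+ livers that held skeletal muscle markers left out, chosen after seeing the data, 17 members and 1062 of all genes passed the adjusted threshold. The 1 control liver that remained was assumed to vary like the mutant livers. The number of members at the adjusted threshold was 1, 6 and 3 without +/+ mouse 1, 2 and 3 and 1 without ha/ha mouse 2. Counts over all genes are not given for these fits, so the numbers describe the members alone.

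The members with the lowest p in hyper-accurate livers were lower there. Gm4316 (chr8:123165255-123178765, plus strand), which lies inside an intron of the read-through gene Gm20388, had 6923.5, 14989.4 and 20438.8 normalized counts in +/+ livers, 12971.0, 11177.5 and 9412.6 in ep/ep and 2115.9, 2299.5 and 2717.9 in ha/ha. All ha/ha livers were under every other liver. Its log2 fold change was -2.44 ± 0.33 against +/+ (adjusted p = 0.0584, limma) and -2.23 against ep/ep (adjusted p = 0.109). Leaving out +/+ mouse 1, 2 or 3 brought the adjusted p against +/+ to 0.00179, 0.0483 and 0.0234. In the heart Gm4316 was at 2273.2 ± 191.2 in +/+ and 2102.4 ± 298.8 in ha/ha mice (SD, n = 3), and its log2 fold change there was -0.12. The coding gene beside it, Sult5a1, 6940 bases away on the other strand, was at -0.12 ± 0.33 in ha/ha livers (adjusted p = 0.906).

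AC158975.2, an uncharacterized lincRNA of 2 exon blocks, had 11415.8, 9080.0 and 11867.1 normalized counts in +/+ livers, 14720.8, 10109.2 and 12912.7 in ep/ep and 3215.4, 4832.3 and 2741.8 in ha/ha. No ha/ha liver overlapped with another genotype. In the fit the log2 fold change was -1.62 ± 0.22 against +/+ (adjusted p = 0.0584, limma) and -1.83 ± 0.22 against ep/ep (adjusted p = 0.066). Without ha/ha mouse 2 the latter was -2.07 (adjusted p = 0.0141). Its neighbour Zfp236, a zinc finger gene 1404 bases away, was at -0.56 ± 0.19 (adjusted p = 0.244). In the heart AC158975.2 was at -0.38 ± 0.23 (adjusted p = 0.353), and at -0.70 without ha/ha mouse 2 (adjusted p = 0.00544).

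On the other side, Gm31583 (chr16:24085083-24090089, minus strand) had 83.3, 453.6 and 79.9 normalized counts in +/+ livers, 78.4, 264.5 and 137.6 in ep/ep and 497.4, 1973.2 and 816.2 in ha/ha. The ha/ha livers lay above all others, although mouse 2 was high in each genotype. The log2 fold change was 2.67 ± 0.75 against +/+ (adjusted p = 0.186, limma) and 2.70 against ep/ep (adjusted p = 0.417). The nearest coding gene on the same strand, 96231 bases away, is Bcl6, a transcriptional repressor, and it was at -1.43 ± 0.59 (adjusted p = 0.327). Gm15408 (chr5:149006962-149012776, plus strand) had 111.2, 221.6 and 101.9 in +/+ livers, 100.3, 220.4 and 177.6 in ep/ep and 318.9, 369.9 and 430.4 in ha/ha, a log2 fold change of 1.44 ± 0.35 (adjusted p = 0.15). The 300 bases around the RefSeq start of these genes are printed 5′ to 3′, Gm31583 from chr16:24090016-24090315 (minus strand) and Gm15408 from chr5:149006712-149007011 (plus strand) of GRCm38.p6, because these members had the lowest p among those higher in ha/ha than in ep/ep livers, with motifs in capitals.
Gm31583 promoter: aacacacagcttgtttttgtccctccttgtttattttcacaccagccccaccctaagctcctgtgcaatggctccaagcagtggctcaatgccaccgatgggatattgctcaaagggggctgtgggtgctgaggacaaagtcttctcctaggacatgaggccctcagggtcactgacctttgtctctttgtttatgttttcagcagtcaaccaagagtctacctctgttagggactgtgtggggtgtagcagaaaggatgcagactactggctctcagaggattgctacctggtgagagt
Gm15408 promoter: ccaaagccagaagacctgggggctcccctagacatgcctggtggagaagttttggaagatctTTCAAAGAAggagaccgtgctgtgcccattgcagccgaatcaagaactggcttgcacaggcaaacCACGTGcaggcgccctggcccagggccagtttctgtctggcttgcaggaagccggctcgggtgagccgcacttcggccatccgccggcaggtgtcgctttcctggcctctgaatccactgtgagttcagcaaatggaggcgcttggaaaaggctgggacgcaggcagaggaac

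Both strands were searched for TGTTTAC (forkhead), TTCNNNGAA (STAT), CACGTG (E-box) and TATAAA. The window of Gm15408 held 1 STAT and 1 E-box match, and that of Gm31583 held none. Of 32817 promoters of this length 3.6%, 8.3%, 7.1% and 13.6% held the 4 motifs in that order, and of the 65 members with a promoter 4, 7, 8 and 8 did. A member was counted when any of its promoters held the motif, so these counts and the shares per promoter are on unlike units. These are matches of letters and not binding sites.

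Gm17753 had 132.9, 279.8 and 168.8 normalized counts in +/+ livers, 247.7, 385.2 and 308.5 in ep/ep and 373.7, 421.8 and 484.5 in ha/ha. AC102159.1 had 361.7, 581.4 and 265.8, 442.1, 786.4 and 694.7, and 1171.0, 817.0 and 891.1 in the same order. For both the ha/ha livers lay above +/+ without overlap, and ep/ep livers lay between or overlapped. Its log2 fold changes against +/+ were 1.20 ± 0.27 and 1.31 ± 0.30 (adjusted p = 0.134 for each, limma).

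**Figure D3:**
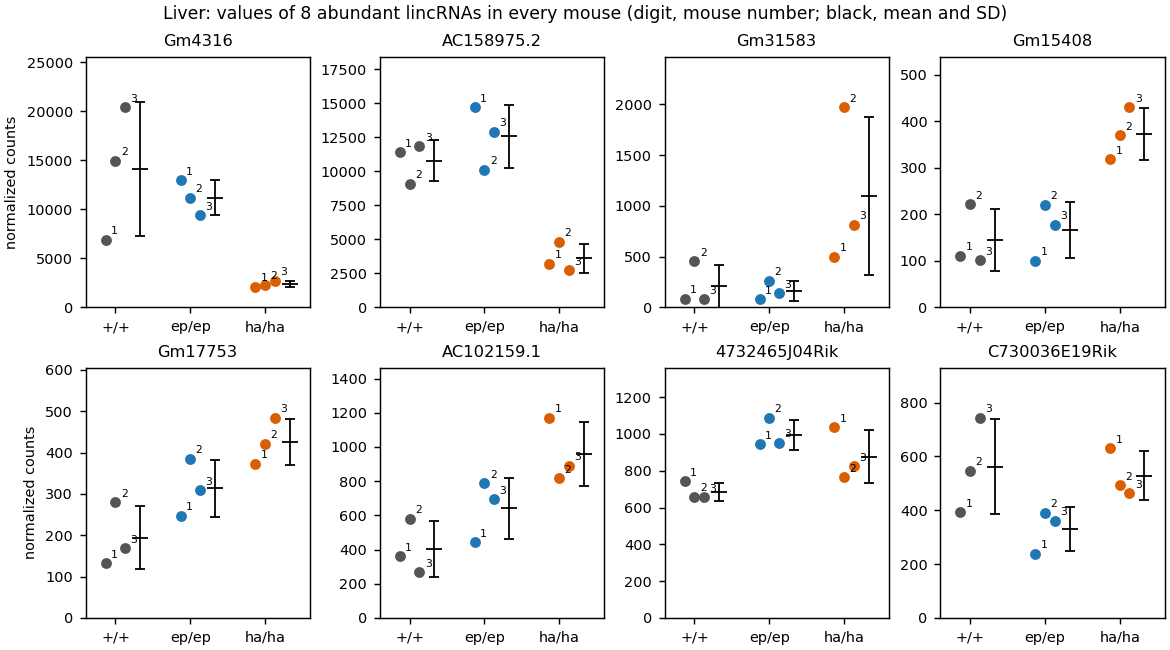
Normalized counts of named lincRNAs in each liver, 3 mice per genotype (n = 3), each point labelled with its mouse number, with the mean and SD of each group in black. Gm4316 stands at 2115.9 to 2717.9 in ha/ha livers and at 6923.5 to 20438.8 in the other 6.

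Among the 24 members with an unadjusted p under 0.05 in ha/ha against +/+ livers the log2 fold changes ran from -3.60 for H19 to 2.67 for Gm31583. Lppos, the RNA antisense to Lpp, was among them as it was in the heart, at 0.54 ± 0.17 in the liver (adjusted p = 0.23, limma), while Lpp was at -0.07 ± 0.12. Of the members abundant in both tissues, 6 had an unadjusted p under 0.05 in this comparison in each of them, and all 6 had the same direction in both. How many of all genes did so in both tissues was not counted, so no excess of the members is claimed. In the heart 9.64% of all genes were higher and 10.1% lower at that threshold, and in the liver 7.07% and 7.05%. Beside Lppos, Snhg20 was at 0.72 ± 0.29 in the liver (adjusted p = 0.321), 5031425E22Rik at 0.62 ± 0.23 in the heart and 0.39 ± 0.13 in the liver, and AI480526 at 0.58 ± 0.20 and 0.70 ± 0.30. The lower ones were Gm12840, at -1.27 ± 0.52 in the heart and -0.58 ± 0.23 in the liver, and Gm20186, at -1.30 ± 0.54 and -0.71 ± 0.25. These were named after their values were seen, and none passed the adjusted threshold in either tissue (limma).

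In error-prone livers 0 of the 89 members passed the adjusted threshold against +/+ (0.00653% of all genes), 10 were higher with an unadjusted p under 0.05 (11.2% against 4.62%) and 3 lower (3.37% against 5.12%). The limma-voom fit gave 0 and 11. The median was 0.14. 4732465J04Rik had 741.6, 659.0 and 656.3 normalized counts in +/+ livers, 945.4, 1087.8 and 952.1 in ep/ep and 1037.7, 764.4 and 825.5 in ha/ha. Both mutants lay above +/+, and the log2 fold change in ep/ep was 0.54 ± 0.13 (adjusted p = 0.349, limma). Gm5524 had 598.2, 596.0 and 420.7 in +/+, 808.2, 664.9 and 825.6 in ep/ep and 718.8, 763.1 and 651.9 in ha/ha livers, a log2 fold change of 0.52 in ep/ep (adjusted p = 0.434), again with both mutants above +/+.

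Lower in error-prone livers was C730036E19Rik, with 393.2, 547.4 and 743.5 normalized counts in +/+, 238.3, 391.0 and 361.8 in ep/ep and 630.7, 492.1 and 463.7 in ha/ha, with -0.75 ± 0.26 on the log2 scale (adjusted p = 0.456). BC049987 had 766.1, 1493.5 and 1103.1 in +/+ and 660.1, 812.4 and 592.6 in ep/ep livers. The groups +/+ and ep/ep lay apart for C730036E19Rik and overlapped for BC049987. Treh, the trehalase gene 995 bases from BC049987, was at -0.88 ± 0.34 in ep/ep livers (adjusted p = 0.471) and at -1.28 ± 0.34 in ha/ha livers (adjusted p = 0.168).

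Between the mutants 0 of the liver members had an adjusted p under 0.05 (0.00653% of all genes), 8 were higher in ha/ha with an unadjusted p under 0.05 (8.99% against 4.17%) and 6 lower (6.74% against 4.45%), with 0 and 14 in the limma-voom fit and a median of 0.03. Gm4316, AC158975.2, Gm31583 and Gm15408, described above, had the lowest p. Of these, Gm31583 and Gm15408 were liver members only through their ha/ha livers, so their place among the higher ones follows in part from the selection. Neat1 had 9571.6, 20472.7 and 30703.1 in +/+ livers, 14443.3, 11165.2 and 11771.9 in ep/ep and 16193.8, 25709.0 and 29260.1 in ha/ha, with 0.89 ± 0.38 between the mutants (adjusted p = 0.568) and a wide spread in +/+. 9030622O22Rik, 2674 bases from Foxa2, had 137.1, 233.7 and 132.1 in +/+, 231.3, 142.4 and 233.0 in ep/ep and 199.9, 252.5 and 318.2 in ha/ha livers, and the groups overlapped. Its log2 fold change in ha/ha against +/+ was 0.64 ± 0.29 (adjusted p = 0.374), and that of Foxa2, a forkhead factor of hepatocytes, was 1.19 ± 0.19 (adjusted p = 0.0722). The most abundant liver members showed overlapping groups. AC160336.1, AC102496.1 and Gm42047 were at -0.37 ± 0.22, -0.14 ± 0.15 and 0.96 ± 0.44 in ha/ha against +/+ (adjusted p = 0.484, 0.706 and 0.366).

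**Figure D4:**
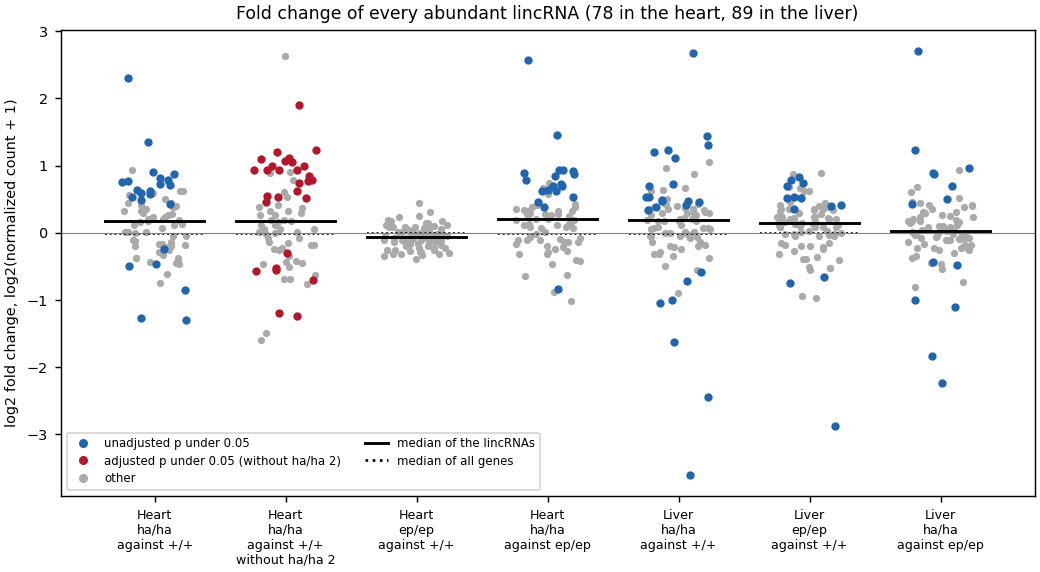
Log2 fold changes of the abundant lincRNAs in each comparison of genotypes, 1 point per lincRNA abundant in that tissue, with solid lines at the median of the lincRNAs and dotted lines at that of all genes. Blue points had an unadjusted p under 0.05, and red points an adjusted p under 0.05 without ha/ha mouse 2. In ha/ha against +/+ the median is 0.18 in the heart and 0.19 in the liver, and Gm4316 lies lowest in the liver at -2.44 apart from H19 at -3.60.

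H19, an imprinted RNA that is abundant in muscle and in fetal tissues, varied widely within groups. In the liver it had 1031.3, 875.7 and 38.3 normalized counts in +/+, 77.6, 17.3 and 62.1 in ep/ep and 73.8, 10.2 and 22.9 in ha/ha. High values were found in +/+ mice 1 and 2, which are the livers with skeletal muscle markers at 627.1 and 764.7 CPM, and the third +/+ liver lay within the range of the mutants. In the fit the log2 fold change in ha/ha against +/+ was -3.60 ± 1.22 (adjusted p = 0.255, limma). The part of skeletal muscle RNA in it was not tested. In the heart H19 had 1003.2, 1608.4 and 2346.4 in +/+, 478.5, 8655.0 and 1340.4 in ep/ep and 2733.5, 3056.3 and 3114.8 in ha/ha, with 0.93 ± 0.83 (adjusted p = 0.524). The highest heart, ep/ep mouse 2, had the highest atrial markers, at 13954.3 CPM. It also had the highest fibroblast (3082.4), macrophage (414.8) and mesothelial (119.4) markers of the hearts. The ha/ha hearts, with atrial markers at 200.8 to 384.7 CPM, had more H19 than +/+ mice 2 and 3 and ep/ep mouse 3. The atrial markers of those were 5514.6, 4019.9 and 3120.3 CPM. A link of H19 to any of these markers was not tested. Meg3 had 841.3, 1277.0 and 1149.6 in +/+ hearts, 1023.3, 1561.1 and 987.2 in ep/ep and 1901.5, 1051.0 and 1782.1 in ha/ha, with overlap between all groups and 0.51 ± 0.27 (adjusted p = 0.299).

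**Figure D5:**
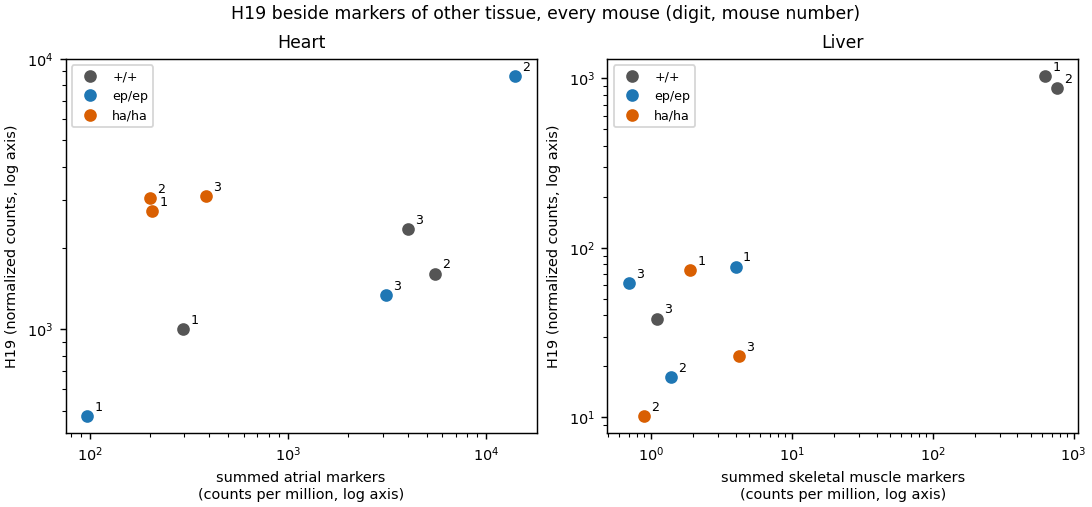
Normalized counts of H19 (vertical axis) against the summed atrial markers in each heart (left) and the summed skeletal muscle markers in each liver (right) in CPM, all on log scales, 1 point per mouse with its number. The livers of +/+ mice 1 and 2 lie apart with 1031.3 and 875.7 counts of H19, and the other 7 lie at 10.2 to 77.6.

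The proteins that work with these RNAs were examined from lists of named genes, which were chosen with earlier results of these data known. In the fits with all mice, 0 genes of any list had an adjusted p under 0.05 with limma in either tissue. Of 14 nuclear speckle proteins, the partners of Malat1, 6 were higher and 0 lower in ha/ha than in +/+ hearts with an unadjusted p under 0.05, where 9.64% of all genes were higher and 10.1% lower, and their median log2 fold change was 0.40 against -0.024 for all genes. The fit without ha/ha mouse 2 left out the ha/ha heart nearest to the controls in the members' median, which can itself raise the calls. In it 9 of 14 rose at an adjusted p under 0.05, where 12.2% of all genes rose and 14.8% fell. Among them were the splicing kinase Clk1 (0.95 ± 0.11, adjusted p = 0.00269), the speckle scaffold Son (0.62 ± 0.09, adjusted p = 0.00408) and the splicing factor Srsf6 (0.66 ± 0.09, adjusted p = 0.00332). The 15 paraspeckle proteins, partners of Neat1, moved in both directions in that fit, with 3 higher and 3 lower. Of the 15 snoRNP proteins 2 rose and 3 fell, of 15 factors of nonsense-mediated decay 5 rose and 1 fell, and of 14 tested genes of the nuclear exosome 4 rose and 1 fell, to be read against the same shares of all genes. In the livers, with an unadjusted p under 0.05, 1 speckle protein was higher and 2 were lower in ha/ha against +/+.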

How the data were processed

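Total RNA of whole hearts and livers was sequenced on the Illumina HiSeq platform. Per the labels and methods, the authors trimmed reads with Trim Galore 0.4.1 and cutadapt 1.18, checked them with FastQC 0.11.8, quantified genes by strand with Salmon 1.1.0 on GENCODE vM21 (GRCm38.p6) and scaled the counts with DESeq2 size factors per tissue, without mitochondrial transcripts. The deposited values used here are these normalized counts, printed with 1 decimal, in 1 table per tissue. Columns of the authors' own comparisons were not used. In each column 100.0% of the low values were whole multiples of 1 step within 0.1, which gave reads and depth. Salmon shares reads between overlapping genes by estimation.

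Genes with a mean of at least 10 were fitted with limma 3.58.1 in R 4.3.3 (lmFit, eBayes with trend) on log2(normalized count + 1), with all 3 genotypes of a tissue in 1 fit. The p-values were adjusted by Benjamini-Hochberg over all genes tested, with a threshold of 0.05. An exact permutation test of 3 against 3 mice cannot go below 0.1, so it was not used for calls. The sequences are from RefSeq and GENCODE on GRCm38.p6, and Python 3.11.15 was used for the rest. The scripts were tested on simulated data. The p-values measure the spread between mice.

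Named are the 5 members with the highest mean in each tissue, the 2 with the lowest p in each direction of each comparison, members of class lists and the lincRNAs nearest to the threshold. The classes were snoRNA hosts, imprinted, nuclear, microRNA hosts, ribosomal-RNA-like, X chromosome, heart and liver. Members and lists were chosen with earlier results of these data known. Alternatives were pseudocounts of 0.1 and 8, other filters and member thresholds, other scaling, only the 2 genotypes compared, a fit with array weights, limma-voom on recovered reads, the replicate block and leaving out each mouse. Same-numbered mice had correlations of their deviations of -0.23 to 0.58. The highest were 0.58 and 0.41, between +/+ and ep/ep hearts 1 and 2. No correlations of differently numbered mice are set beside them, so they do not settle whether the numbers mark pairs. The numbers were not taken as pairs in the main fit.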

Additional observations from a re-analysis of the deposited data

Results flagged for a closer look

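For 5 results every mouse of one genotype lay on one side of the other genotype in the heart and on the opposite side in the liver. The difference between the tissues was not tested, since the tables were normalized separately. Of the 82 members tested in both tissues these were 2 in ha/ha against +/+, 1 in ep/ep against +/+ and 2 in ha/ha against ep/ep (2.44%, 1.22% and 2.44%). Among all 14070 genes tested in both the shares were 1.29%, 0.490% and 1.14%. Gm15408 in ha/ha against +/+ had a log2 fold change of -0.81 in the heart and 1.44 in the liver, and against ep/ep -0.77 and 1.23. In the heart it had 51.7, 36.3 and 45.9 normalized counts in +/+, 45.6, 36.5 and 47.2 in ep/ep and 23.9, 18.1 and 34.6 in ha/ha. Gm45495 in ha/ha against +/+ was at -0.49 in the heart and 0.46 in the liver, Gm20300 in ep/ep against +/+ at -0.10 and 0.35, and Gm49797 in ha/ha against ep/ep at 0.46 and -0.63. None of these had an adjusted p under 0.05 with limma in either tissue.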

How the results depend on the processing

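Of 19 named log2 fold changes recomputed under each alternative none changed direction, and with all mice none had an adjusted p under 0.05 that could be lost. In 35 of 304 recomputations one passed that threshold, mostly without ha/ha heart 2, under array weights or without a +/+ liver. Leaving out 1 mouse at a time gave the following ranges of members. In ha/ha against +/+ hearts 0 to 30 had an adjusted p and 8 to 40 an unadjusted p under 0.05, and in ep/ep against +/+ hearts 0 to 2 had the latter. In ha/ha against ep/ep hearts the ranges were 0 to 25 and 12 to 34. In ha/ha against +/+ livers they were 0 to 6 and 13 to 33, with a median log2 fold change of 0.16 to 0.28. In ep/ep against +/+ livers 6 to 24 had an unadjusted p under 0.05, with a median of 0.10 to 0.24, and between the mutant livers 0 to 1 had an adjusted p and 9 to 12 an unadjusted p. In the hearts the upper ends 30 and 40, and 25 and 34, came from the fit without ha/ha mouse 2. There 12.2% of all genes rose and 14.8% fell against +/+ at an adjusted p under 0.05, and 10.4% and 12.9% against ep/ep. Counts over all genes are not given for the other fits.

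Array weights gave 35 adjusted and 46 unadjusted calls with a median of 0.27 in ha/ha against +/+ hearts, 36 and 46 with 0.29 in ha/ha against ep/ep hearts and 9 unadjusted calls in ep/ep against +/+ hearts. Counts over all genes are not given for array weights, so these numbers do not set the members apart from other genes. In livers array weights gave 1 adjusted call and a median of 0.11 in ha/ha against +/+, and 2 and 25 calls between the mutants, as did the fit of only the 2 genotypes compared. The replicate block gave 1 unadjusted call in ep/ep against +/+ hearts and 1 adjusted call each in ha/ha against +/+ and against ep/ep livers, the latter Gm31583, and changed no other call by over 1.5 times. Members with a mean of at least 100 gave 36, 1 and 30 unadjusted calls in the 3 heart comparisons (ha/ha against +/+, ep/ep against +/+, ha/ha against ep/ep) and 22 in ep/ep against +/+ livers. With at least 500 they gave 10 in ha/ha against +/+ hearts, 9 with a median of 0.12 in ha/ha against ep/ep hearts, 11 with a median of 0.08 in ha/ha against +/+ livers and 7 in each of the other liver comparisons. These calls come from the main fits, for which the shares of all genes are given above. The numbers of members at these thresholds are not given, so the calls cannot be read as shares of the members.

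Chosen after seeing the data, leaving out 4 hearts with atrial markers gave 3, 1 and 4 unadjusted calls in the same order, with a median of 0.11 in the last, against 441, 111 and 335 among all genes. It left 1 +/+ and 1 ep/ep heart, each assumed to vary like the ha/ha hearts, so these counts say nothing about stability. Leaving out 2 +/+ livers with skeletal muscle markers gave 17 adjusted and 40 unadjusted calls in ha/ha against +/+, 18 and 35 with a median of 0.25 in ep/ep against +/+ and 2 and 25 between the mutants. Among all genes the adjusted calls were 1062, 1151 and 18. The lone +/+ liver was assumed to vary like the mutants, which also limits these counts. The causes were not tested. The planned edgeR fit and TMM scaling were not run, since the deposited values are normalized counts and not counts.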
